A study of Mus musculus with 24 samples.

Results

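The cytochrome P450 genes Cyp2a4, Cyp2a5, Cyp2b9, Cyp2b10 and Cyp2b13 were followed in hepatocytes of aged male C57BL/6J mice. They are 5 of the 55421 genes in the deposited tables. They were taken by name, and were chosen by how their measured values differed between the groups, so their differences are given as a description with no test. RNA was sequenced from hepatocytes isolated by collagenase perfusion and a Percoll step, in 24 libraries. Of these, 8 mice stayed on normal diet and received vehicle (ND+veh). A further 7 went on to a high-fat diet while receiving vehicle (HFD+veh). The last 9 went on to that diet while receiving eRapa (HFD+eRapa), which is rapamycin encapsulated in eudragit, given in the food at 42 ppm. Vehicle or eRapa was given in normal diet from 4 months of age, and at 18 months both high-fat groups changed diet for 9 weeks. In the high-fat diet 60% of the calories came from fat. No group stayed on normal diet with eRapa, so an action of rapamycin that needs no high-fat diet cannot be told apart from one that does. The labels name no drug given as an inducer of these genes, so the word inducible describes what the family is known for and was not measured.

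Cytochromes P450 are haem enzymes of the endoplasmic reticulum that add oxygen to steroids, fatty acids, drugs and toxins, with electrons passed on by P450 oxidoreductase. In mouse liver, CYP2A5 is the coumarin 7-hydroxylase and also oxidises nicotine, and its gene responds to liver injury, to the stress factor NRF2 and to many chemicals. CYP2A4 is its close relative and hydroxylates steroids. Cyp2b10 is the classic target of the nuclear receptor CAR (gene Nr1i3) and of phenobarbital. Cyp2a4, Cyp2b9 and Cyp2b13 are known as female-predominant genes of mouse liver, kept low in males by the male pattern of growth hormone secretion.

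All 5 genes lie on the plus strand of chromosome 7 (GRCm38), within a stretch of 946 kb that opens with Cyp2b10 (chr7:25897620-25926624) and goes on with Cyp2b13 (chr7:26061497-26096197), Cyp2b9 (chr7:26173411-26210661), Cyp2a4 (chr7:26307169-26315088) and Cyp2a5 (chr7:26835305-26843548). The annotation places 10 Cyp2 genes in that stretch and 16 in the wider cluster of 1356 kb from Cyp2s1 to Cyp2t4, of which 13 code for protein and 3 are pseudogenes. An exon of Cyp2a4 overlaps an antisense gene, Gm42375, which had at most 14 counts in a library. Cyp2b13 holds Rnf170-ps within it, with no shared exon.

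**Figure D1:**
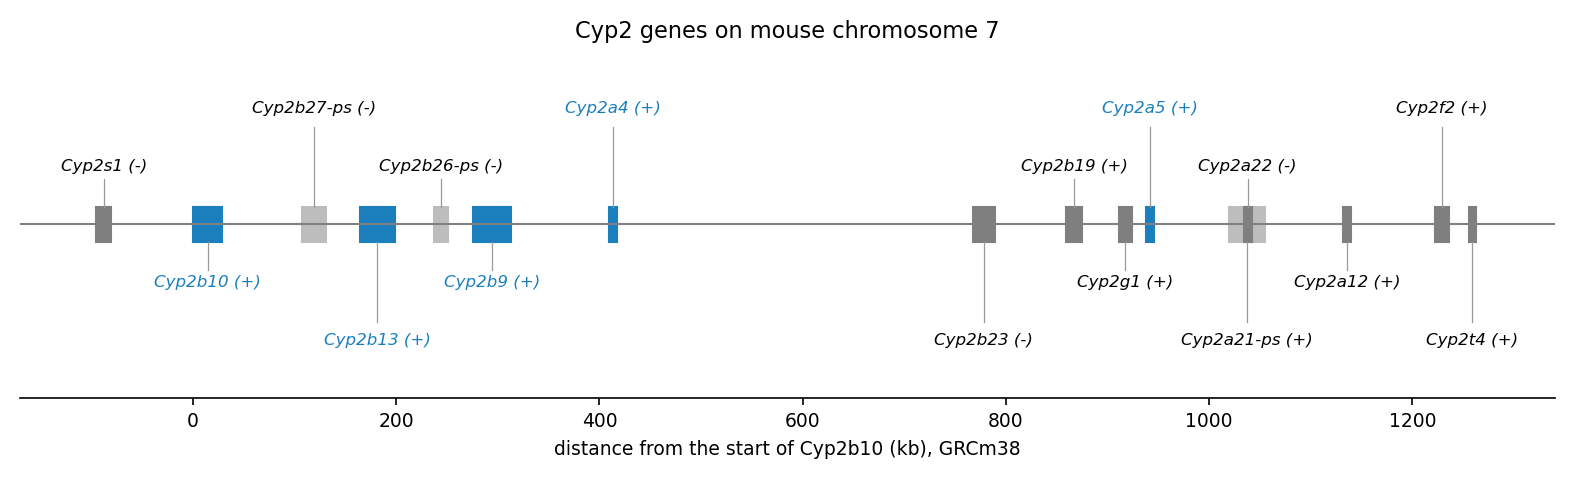
Map of the Cyp2 genes on mouse chromosome 7, with the distance from the start of Cyp2b10 in kb on the x axis and the strand of each gene in brackets. Blue boxes are the 5 genes described, dark grey boxes other protein-coding genes and light grey boxes pseudogenes. The 3 Cyp2b genes lie within 313 kb of each other, and Cyp2a5 lies 938 kb from the start of Cyp2b10.

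The promoters are shown because 2 pairs of these genes carry nearly the same sequence just before the start site, while one partner had the higher median level in each group. The bases come from RefSeq (GRCm38.p6), all 5 genes matched, and each run ends before the earlier of the RefSeq and GENCODE starts. The spans are chr7:26306942-26307168 for Cyp2a4, chr7:26835089-26835304 for Cyp2a5, chr7:26173159-26173408 for Cyp2b9, chr7:26061245-26061494 for Cyp2b13 and chr7:25897408-25897619 for Cyp2b10, all on the plus strand. Capitals mark the bases at which a gene differs from its partner, Cyp2a4 from Cyp2a5 and Cyp2b9 from Cyp2b13. Cyp2b10 has no capitals.
Cyp2a4: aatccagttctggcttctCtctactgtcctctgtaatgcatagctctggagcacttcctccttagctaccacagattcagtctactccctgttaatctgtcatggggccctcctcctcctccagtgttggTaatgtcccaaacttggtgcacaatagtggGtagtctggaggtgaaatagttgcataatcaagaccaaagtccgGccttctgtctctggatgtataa
Cyp2a5: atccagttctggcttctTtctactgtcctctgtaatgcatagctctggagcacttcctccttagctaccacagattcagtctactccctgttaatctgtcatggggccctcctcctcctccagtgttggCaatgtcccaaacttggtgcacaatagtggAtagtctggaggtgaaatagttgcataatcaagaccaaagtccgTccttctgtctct
Cyp2b9: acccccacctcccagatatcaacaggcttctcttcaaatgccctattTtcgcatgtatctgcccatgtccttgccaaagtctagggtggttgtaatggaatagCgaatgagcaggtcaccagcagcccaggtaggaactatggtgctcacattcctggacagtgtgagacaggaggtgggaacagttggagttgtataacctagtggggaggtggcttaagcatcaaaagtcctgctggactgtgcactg
Cyp2b13: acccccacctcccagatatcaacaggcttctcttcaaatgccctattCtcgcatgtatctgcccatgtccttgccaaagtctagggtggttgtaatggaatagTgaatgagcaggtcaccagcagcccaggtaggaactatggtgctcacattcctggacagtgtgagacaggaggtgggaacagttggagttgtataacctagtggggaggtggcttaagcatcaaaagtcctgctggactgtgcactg
Cyp2b10: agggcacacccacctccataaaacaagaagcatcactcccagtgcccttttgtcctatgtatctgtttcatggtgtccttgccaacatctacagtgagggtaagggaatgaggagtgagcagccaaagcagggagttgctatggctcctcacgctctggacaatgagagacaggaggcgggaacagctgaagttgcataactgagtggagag

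With overhanging ends left out, Cyp2b9 and Cyp2b13 differed at 2 of 250 bases (99.2% identity) and Cyp2a4 and Cyp2a5 at 4 of 216 (98.1%). Cyp2b10 matched Cyp2b9 in 58.1% of 260 aligned columns, where gaps and overhanging ends counted as differences. The Cyp2b10 run has 212 bases and that of Cyp2b9 has 250, so this share cannot be compared with those of the pairs. Short motifs were searched on both strands in the 250 bases before each RefSeq start, and were picked after the sequences had been seen. TTGCATAA, close to the form that C/EBP factors bind, was present 70 bases before the start of Cyp2a4, 71 before that of Cyp2a5 and 58 before that of Cyp2b10, and in 0.694% of 32851 RefSeq windows of that length. TATAAA was present in Cyp2a4 and Cyp2a5 and in 12.4% of the windows. It runs over the end of the printed Cyp2a4 bases and lies past the end of the printed Cyp2a5 bases. AGGTCA, a core letter run of many nuclear receptor sites, was present in Cyp2b9 and Cyp2b13 and in 14.0% of the windows. TTCNNNGAA, the form bound by STAT factors, matched none of the 5 and 7.02% of the windows. The direct repeat of AGGTCA spaced by 4 bases, as CAR binds it, also matched none of the 5, and 0.0152% of the windows. A match is only a run of letters, and no match says nothing about the factor.

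The coding sequences show how far the reads of relatives can be told apart. Cyp2a4 and Cyp2a5 differed at 23 of 1482 coding bases (98.4% identity) and at 12 of 494 residues, with 216 identical bases in a row. Cyp2b9 and Cyp2b13 were 92.7% identical in coding sequence and 90.2% in protein, and Cyp2b10 was 86.2% identical to Cyp2b9 and 87.1% to Cyp2b13. Of the 100-base windows of the annotated transcript, 11.2% of Cyp2a4, 14.4% of Cyp2a5, 9.29% of Cyp2b13 and 1.18% of Cyp2b9 occurred unchanged in another gene, and none of Cyp2b10. The read length is not given in the sources used here, and these shares depend on the window. At 75 bases they were 22.1% for Cyp2a4, 25.5% for Cyp2a5, 16.4% for Cyp2b13, 5.16% for Cyp2b9 and 3.32% for Cyp2b10, and at 150 bases 4.22% for Cyp2a4, 5.79% for Cyp2a5 and 5.04% for Cyp2b13. Reads of such windows cannot be assigned to 1 gene by sequence, so the Cyp2a4 and Cyp2a5 values are uncertain where one gene is far lower than the other. Cyp2b13 is uncertain in the same way, since it lay far below Cyp2b9 and shares 93 windows of 75 bases with it. In HFD+veh, Cyp2b13 had 12 to 139 counts and Cyp2b9 2079 to 4914. How such reads were counted, and whether strand was used, is not given in the sources used here. The pseudogenes and gene models that share windows had few reads, at most 12 in a library for Cyp2a21-ps and 1 for Gm45225.

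The libraries held 17.7 M to 25.9 M counts, and totals did not differ detectably between groups (two-sided exact permutation test on means, p from 0.0816 to 0.829). No pair of libraries agreed within sampling noise. The libraries of ND+veh replicate 4 and HFD+veh replicate 6 had been seen to stand apart, the first with the lowest hepatocyte and the second with the highest macrophage marker sum of its group, and were also left out together. The summed level of 9 hepatocyte markers had a median of 126259 CPM (counts scaled to library size) in ND+veh, 117999 in HFD+veh and 100903 in HFD+eRapa, with 54802 in ND+veh replicate 4. HFD+eRapa replicate 7 was lower still, at 52408 CPM. All 5 genes passed the filter on low counts, which asked for 0.475 CPM in at least 7 libraries. Cyp2b10 reached that level in 12 libraries and Cyp2b13 in 11, and neither would have passed without the HFD+veh libraries, so these 2 genes had to be higher there to be tested at all.

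Cyp2a5 had the highest median of the 5 genes per length in each group, although in HFD+veh it cannot be ordered against Cyp2b9. In FPKM, a level corrected for gene length and library size, its median was 111 in ND+veh, 111 in HFD+veh and 43.4 in HFD+eRapa. In ND+veh the next were Cyp2b9 at 18.8 and Cyp2a4 at 15.8 FPKM, which cannot be ordered, since Cyp2b9 was the higher in 4 of 8 mice. Cyp2b10 at 0.453 and Cyp2b13 at 0.0982 FPKM came last. In HFD+veh, Cyp2a5, Cyp2b9 at 104 and Cyp2a4 at 68.4 FPKM were close together, with Cyp2a5 above Cyp2b9 in 4 of 7 mice and Cyp2b9 above Cyp2a4 in 3. Cyp2b13 at 2.24 and Cyp2b10 at 1.49 FPKM were far below. In HFD+eRapa, Cyp2a5 was above Cyp2b9 in 9 of 9 mice, Cyp2b9 at 3.68 FPKM was above Cyp2a4 at 1.19 in 8, and Cyp2b13 at 0.127 was above Cyp2b10 at 0.0743 in 5.

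Cyp2b9, a female-predominant member, was the one of the 5 genes for which HFD+veh lay apart from both other groups. Its level in CPM, scaled by TMM, ranged from 1.25 to 81.5 in ND+veh with a median of 36.3, from 109 to 218 in HFD+veh with a median of 198, and from 2.16 to 50.0 in HFD+eRapa with a median of 7.54. Every HFD+veh mouse was above every mouse of the other groups, whereas ND+veh and HFD+eRapa overlapped. The spread was narrow in HFD+veh (180 ± 40.7 CPM, SD, n = 7) and wide in ND+veh (39.3 ± 36.0, SD, n = 8) and HFD+eRapa (17.9 ± 17.5, SD, n = 9). The fitted log2 fold change was 2.19 (SE 0.76) for HFD+veh against ND+veh, -3.33 (SE 0.76) for HFD+eRapa against HFD+veh, and -1.14 (SE 0.70) for HFD+eRapa against ND+veh.

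Cyp2b13, the neighbour of Cyp2b9 and likewise female-predominant, was low in count. It had 0 to 87 counts in ND+veh with a median of 3, 12 to 139 in HFD+veh with a median of 88, and 0 to 56 in HFD+eRapa with a median of 4. In CPM the medians were 0.143, 3.88 and 0.225, and the maxima 2.74, 5.84 and 2.40. It was at 0 in 3 ND+veh and 3 HFD+eRapa mice, which allows at most 0.14 to 0.186 CPM there if 3 counts are taken as the limit of a count of 0, a limit that covers counting error only. All 7 HFD+veh mice were above the ND+veh median and 4 were above every ND+veh mouse, so the groups overlapped. The fitted log2 fold change was 2.83 (SE 0.99) for HFD+veh against ND+veh, -2.60 (SE 0.94) for HFD+eRapa against HFD+veh, and 0.22 (SE 0.94) for HFD+eRapa against ND+veh. The 87 counts of ND+veh replicate 4 weighed on this gene, since the next ND+veh mouse had 8, and without that library the first value was 4.57 and the last 2.01.

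Cyp2b10, the CAR target, stayed at low counts in every mouse. ND+veh had 3 to 100 counts with a median of 17.5, HFD+veh 47 to 65 with a median of 58, and HFD+eRapa 0 to 9 with a median of 3. In CPM the ranges were 0.170 to 5.24, 1.86 to 3.40 and 0 to 0.453. Every HFD+eRapa mouse was below every HFD+veh mouse, and the coefficient of variation was 20.3% in HFD+veh (2.68 ± 0.545 CPM, SD, n = 7) beside 136% in ND+veh and 84.5% in HFD+eRapa. All 7 HFD+veh mice were above the ND+veh median, but ND+veh replicate 6, with 100 counts, was above all 7. The fitted log2 fold change was 1.13 (SE 0.57) for HFD+veh against ND+veh, or 2.01 without ND+veh replicate 6, and -3.82 (SE 0.62) for HFD+eRapa against HFD+veh. Against ND+veh, HFD+eRapa was at -2.69 (SE 0.61), or -1.81 without ND+veh replicate 6.

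Cyp2a4, the steroid hydroxylase of the Cyp2a pair, varied widely within each group. It ranged from 0.511 to 570 CPM in ND+veh with a median of 25.8, from 25.0 to 273 in HFD+veh with a median of 124, and from 0.169 to 15.0 in HFD+eRapa with a median of 2.35. Every HFD+eRapa mouse was below every HFD+veh mouse, and all 9 were below the ND+veh median. The highest ND+veh value came from replicate 4, with 18113 counts, where the next had 1304. The fitted log2 fold change was -4.64 (SE 1.10) for HFD+eRapa against HFD+veh and -4.06 (SE 1.06) against ND+veh, the latter -2.17 without ND+veh replicate 4. For HFD+veh against ND+veh it was 0.57 (SE 1.00), and 2.42 without that library.

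Cyp2a5, the coumarin 7-hydroxylase gene, had the smallest fitted difference of the 5 genes between the high-fat groups. It ranged from 86.3 to 1986 CPM in ND+veh with a median of 196, from 65.3 to 750 in HFD+veh with a median of 208, and from 21.3 to 120 in HFD+eRapa with a median of 78.0. All 3 groups overlapped, although each of the 9 HFD+eRapa mice was below the medians of both other groups. Here too ND+veh replicate 4 stood far above, with 63066 counts where the next had 6197. The fitted log2 fold change was -2.09 (SE 0.60) for HFD+eRapa against HFD+veh and -2.38 (SE 0.59) against ND+veh, the latter -1.27 without that library. For HFD+veh against ND+veh it was -0.29 (SE 0.61), and it turned to 0.79 without that library, so no direction can be given.

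**Figure D2:**
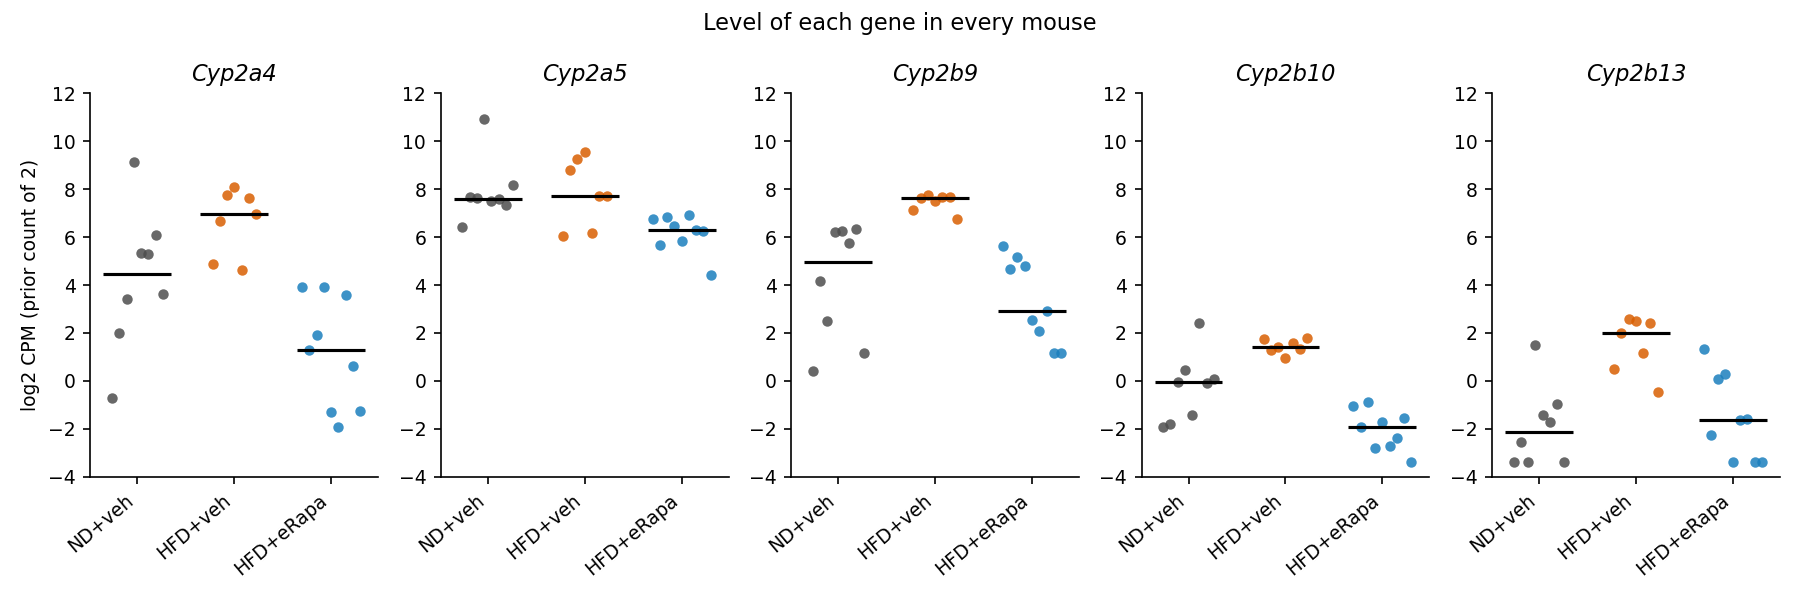
Level of each gene in every mouse as log2 CPM with a prior count of 2, where a count of 0 is at -3.39. Points are mice and bars are group medians (8 ND+veh, 7 HFD+veh, 9 HFD+eRapa). Cyp2b9 in HFD+veh sits above every other point of its panel, and the single high ND+veh point for Cyp2a5, at 10.96, is replicate 4.

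Set against all genes, a gene is called here when its edgeR quasi-likelihood adjusted p is under 0.05. For HFD+veh against ND+veh, 25.9% of the 13847 genes tested were called and 2 of the 5 genes were, Cyp2b9 and Cyp2b13. The groups did not overlap for 1 of the 5, Cyp2b9, and for 2.44% of all genes. For HFD+eRapa against HFD+veh, 32.0% of genes were called and all 5 of these were, with no overlap for Cyp2a4, Cyp2b9 and Cyp2b10 and for 2.59% of all genes. For HFD+eRapa against ND+veh, 13.5% of genes were called and 3 of these were (Cyp2a4, Cyp2a5 and Cyp2b10), while the groups overlapped for all 5 and did not for 3.37% of all genes. The genes were picked on these contrasts, so nothing is read from these counts. The 2 HFD+eRapa contrasts share their 9 mice, and each group serves in 2 contrasts.

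**Figure D3:**
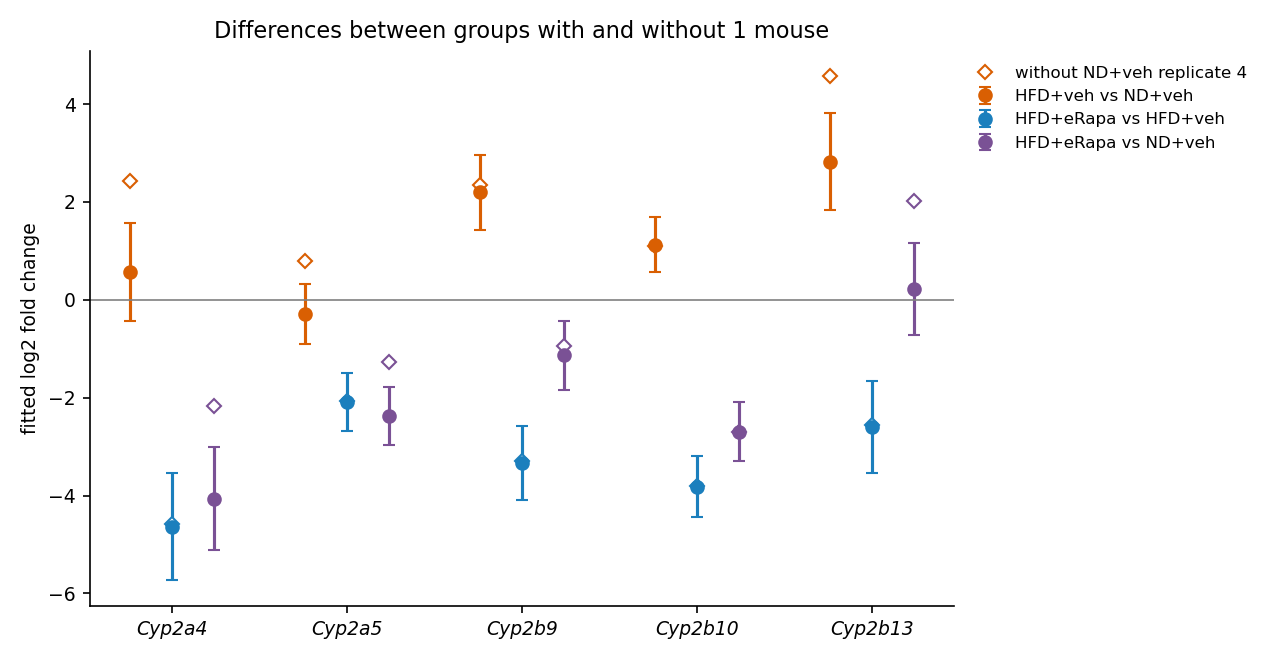
Fitted log2 fold change of each gene in the 3 comparisons, as filled circles with bars of 1 SE from the fit over 24 mice. Open diamonds in the same colours give the value without ND+veh replicate 4. Leaving it out moves Cyp2a4, Cyp2a5 and Cyp2b13 in both comparisons with ND+veh and hardly moves HFD+eRapa against HFD+veh.

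The balance of the 2 genes within the Cyp2a pair is given as a description. Cyp2a4 took 0.588% to 29.7% of the Cyp2a4 and Cyp2a5 counts in ND+veh with a median of 11.0%, 18.4% to 49.1% in HFD+veh with a median of 26.7%, and 0.140% to 14.4% in HFD+eRapa with a median of 3.06%. Every HFD+eRapa mouse was below every HFD+veh mouse in this share. The 2 deposited tables can be set against each other here, by dividing the deposited FPKM by the like value (RPKM) computed from the counts. That ratio was 1.02 to 1.24 for Cyp2a5 and 1.01 to 7.67 for Cyp2a4, with its highest value in HFD+eRapa replicate 6, where Cyp2a4 had 3 counts. For Cyp2b13 the ratio was 0.255 to 2.51 over 18 libraries, with its highest value in HFD+eRapa replicate 2, where Cyp2b13 had 2 counts. The lowest Cyp2a4 and Cyp2b13 levels therefore depend on which table is read, and the part of shared reads in this was not tested.

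**Figure D4:**
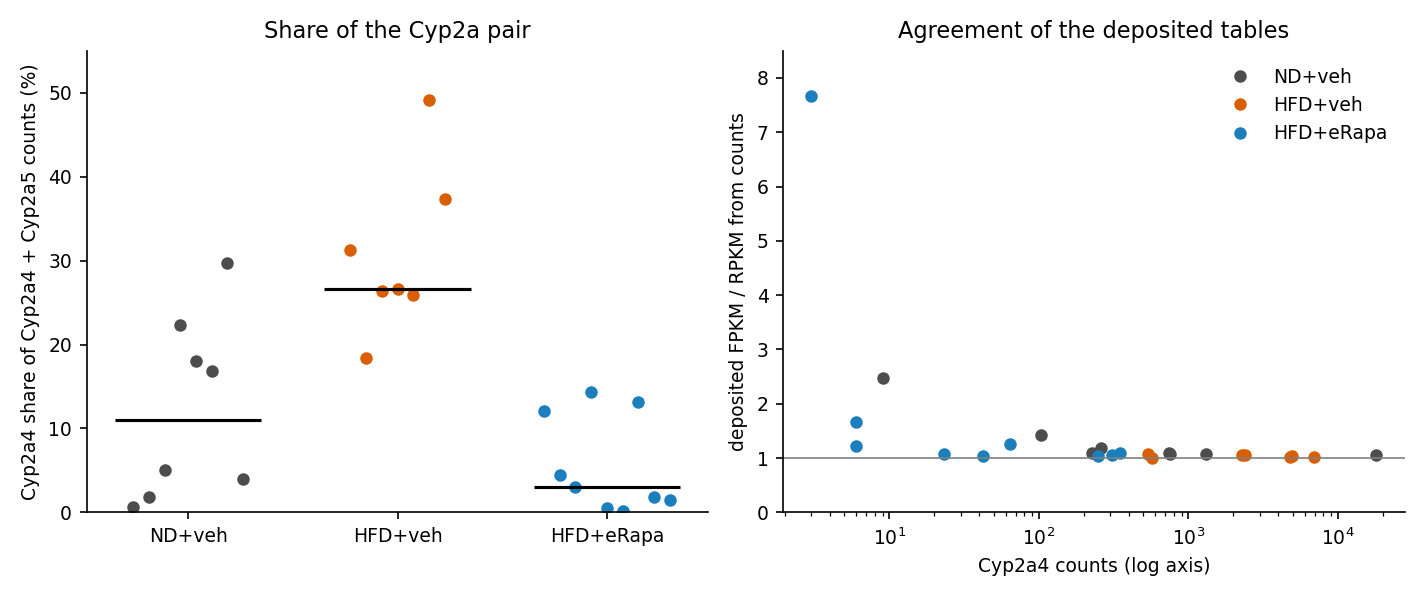
Left, Cyp2a4 share of the summed Cyp2a4 and Cyp2a5 counts in each mouse in percent, with group medians as bars. Right, deposited Cyp2a4 FPKM divided by the value computed from counts, against Cyp2a4 counts on a log axis, with 1 point per mouse. The ratio stays near 1 at high counts and reaches 7.67 at 3 counts.

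Among the Cyp2b genes, Cyp2b9 held most of the counts. Cyp2b9 held a median of 92.9% of the Cyp2b counts in ND+veh, 96.4% in HFD+veh and 96.0% in HFD+eRapa, and its share in HFD+veh lay between 96.2% and 97.6%. Summed Cyp2b counts were 0.0101 to 0.357 of the Cyp2a counts in ND+veh, 0.187 to 2.18 in HFD+veh and 0.0312 to 0.489 in HFD+eRapa.

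Whether the genes varied together from mouse to mouse within a group was not used to choose them and could be tested. Over 30 tests, that is 10 pairs of genes in each of 3 groups, 0 had an adjusted p under 0.05 by the two-sided exact permutation test of Pearson's r of log2 CPM, 11 had an unadjusted p under 0.05, and the smallest adjusted p was 0.0639. Without TMM scaling 6 passed, and on log2(FPKM + 0.1) 7 did. By Spearman's rho of log2 CPM with TMM scaling none passed, with 0.0842 as the smallest adjusted exact permutation p. The p-values given with rho below are unadjusted. Cyp2b9 and Cyp2b13 had r of 0.79 in ND+veh (n = 8, exact permutation p = 0.0124, adjusted 0.0639; Spearman's rho 0.90, exact permutation p = 0.00536). In HFD+eRapa r was 0.85 (n = 9, exact permutation p = 0.00673, adjusted 0.0639; rho 0.81, exact permutation p = 0.0112). Without the 2 mice farthest from the median of Cyp2b9, r was 0.75 and 0.71 in these groups. Cyp2b13 was at 0 counts in 3 mice of each of these groups, and the 2 genes share 93 windows of 75 bases. The part of shared reads and of tied values at 0 counts in these r was not tested. In HFD+veh r was 0.89 (n = 7, exact permutation p = 0.0117, adjusted 0.0639; rho 0.75, exact permutation p = 0.0663) and -0.03 without those 2 mice, so it rests on them. Cyp2a4 and Cyp2a5 had r of 0.77 in ND+veh (n = 8, exact permutation p = 0.0340, adjusted 0.110; rho 0.24, exact permutation p = 0.582), which fell to -0.54 without 2 mice. Their r was 0.89 in HFD+veh (n = 7, exact permutation p = 0.0101, adjusted 0.0639; rho 0.86, exact permutation p = 0.0238) and 0.45 without 2 mice, and 0.41 in HFD+eRapa (n = 9, exact permutation p = 0.286, adjusted 0.390; rho 0.22, exact permutation p = 0.581) and 0.68 without 2 mice. In HFD+veh, Cyp2b10 had a negative r with each of the other 4 genes, and these were the only negative values among the 30. Cyp2b10 had 58 ± 6.27 counts there (SD, n = 7). That SD is below the square root of the mean, which counting error alone would give. The counts thus show no spread between mice beyond counting error, and no opposite course of Cyp2b10 is read from these r. The part of library scaling in them was not tested. With Cyp2b13 r was -0.85 (n = 7, exact permutation p = 0.0161, adjusted 0.0689; rho -0.75, exact permutation p = 0.0663) and -0.87 without 2 mice. With Cyp2a5, Cyp2b9 and Cyp2a4 it was -0.74, -0.64 and -0.62 (adjusted exact permutation p of 0.146, 0.241 and 0.241), and for Cyp2b9 it turned to 0.82 without 2 mice.

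Markers of other liver cells differed as well. For macrophages, stellate and endothelial cells, more were called between the high-fat groups than in HFD+veh against ND+veh. Some stellate markers also differed in HFD+eRapa against ND+veh. The summed level of 10 macrophage markers had a median of 244 CPM in ND+veh (range 41.7 to 1185), 2336 in HFD+veh (165 to 4545) and 185 in HFD+eRapa (13.5 to 995), and 4 markers were higher in HFD+veh than ND+veh and 8 lower in HFD+eRapa than HFD+veh. None of the 10 was at 0 throughout a group. Of 8 stellate markers, 8 were lower in HFD+eRapa than HFD+veh (medians of the sum 43.3 and 150 CPM, 120 in ND+veh), and of 8 endothelial markers 7 were (145 and 439 CPM, 232 in ND+veh). In HFD+veh against ND+veh only 2 of the 8 stellate and 1 of the 8 endothelial markers were called, each higher, beside 25.9% of all genes tested. Few of the remaining markers could be tested, with 2 of 3 neutrophil and 3 of 4 cholangiocyte markers higher in HFD+veh than ND+veh while the 1 lymphocyte marker tested was not called. Between HFD+eRapa and HFD+veh, 2 of the 3 neutrophil markers were lower in HFD+eRapa, and of the 4 cholangiocyte markers 1 was higher and 1 lower. The sum of 10 lymphocyte markers had medians of 1.19, 10.4 and 1.90 CPM in ND+veh, HFD+veh and HFD+eRapa. In the same order the medians were 1.12, 23.4 and 2.49 CPM for neutrophil and 18.1, 116 and 34.7 CPM for cholangiocyte markers. Of the 9 hepatocyte markers 1 was lower in HFD+veh than ND+veh and 1 higher in HFD+eRapa than HFD+veh. In HFD+eRapa against ND+veh, 4 of the 8 stellate markers were lower and 1 of the 4 cholangiocyte markers was higher. There edgeR called 0 of the 10 macrophage, 8 endothelial, 3 neutrophil and 9 hepatocyte markers, with 0, 1, 1 and 1 of them at an unadjusted p under 0.05 and 0, 0, 1 and 0 called by DESeq2. The part of these cells in the levels of the 5 genes was not tested. In bulk RNA, fewer cells of a type and less RNA per cell cannot be told apart.

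A list of regulators of these genes was read beside them. Of 22 regulators tested, 1 was higher and 6 lower in HFD+veh than ND+veh, 11 were higher and 2 lower in HFD+eRapa than HFD+veh, and 1 was higher and 1 lower in HFD+eRapa than ND+veh. The median log2 fold change of the list was -0.33, 0.46 and 0.08 in these comparisons, beside 0.05, -0.04 and -0.03 over all genes tested. Of all genes tested, 25.9%, 32.0% and 13.5% were called in these comparisons, shares to be set beside the counts of every list. CAR (Nr1i3) was not called in any of them, with medians of 37.4, 21.4 and 43.4 CPM in ND+veh, HFD+veh and HFD+eRapa and a value of 0.74 (SE 0.34, edgeR adjusted p = 0.103) between the high-fat groups. The related drug sensor PXR (Nr1i2) was higher in HFD+eRapa than HFD+veh by 0.41 (SE 0.15, edgeR adjusted p = 0.0444). Nfe2l2, which encodes NRF2, had -0.05 (SE 0.15) there, and Hnrnpa1, whose protein binds Cyp2a5 messenger RNA, -0.50 (SE 0.20), neither of them called. Of the called regulators, 3 are added here that were chosen after their values were seen. Socs2, a target and feedback inhibitor of growth hormone signalling, had -2.32 (SE 0.44) in HFD+veh against ND+veh and 1.86 (SE 0.42) in HFD+eRapa against HFD+veh. The hepatocyte factor genes Onecut1 and Foxa1 had -1.69 (SE 0.57) and -1.29 (SE 0.26) in the first and 2.38 (SE 0.58) and 1.28 (SE 0.25) in the second. Bcl6, a repressor of female-predominant genes in male liver, had medians of 15.4, 10.1 and 13.3 CPM in ND+veh, HFD+veh and HFD+eRapa. Its ranges overlapped, at 5.96 to 83.4, 5.54 to 33.8 and 3.35 to 54.7 CPM. Cux2, an activator of such genes in female liver, did not pass the filter, with at most 16 counts in ND+veh, 45 in HFD+veh and 5 in HFD+eRapa.

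Among 8 genes for P450 electron transfer and haem, 3 were lower in HFD+veh than ND+veh, 3 were higher and 1 lower in HFD+eRapa than HFD+veh, and 1 was higher in HFD+eRapa than ND+veh. The median log2 fold changes of the list were -0.29, 0.44 and 0.17. P450 oxidoreductase (Por) had medians of 150, 91.8 and 190 CPM in ND+veh, HFD+veh and HFD+eRapa, and Alas1, the rate-limiting enzyme of haem synthesis, 278, 200 and 361 CPM. Neither was called in any comparison.

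Of the relatives on chromosome 7, 3 could be tested. Cyp2a22 had medians of 6.14, 14.3 and 5.43 CPM in ND+veh, HFD+veh and HFD+eRapa. It was higher in HFD+veh than ND+veh by 1.11 (SE 0.40, edgeR adjusted p = 0.0426) and lower in HFD+eRapa than HFD+veh, at -1.08 (SE 0.39, edgeR adjusted p = 0.0352). Cyp2a12, a testosterone hydroxylase gene, was higher than in ND+veh in both high-fat groups, by 0.84 (SE 0.15) in HFD+veh and 0.73 (SE 0.14) in HFD+eRapa (edgeR adjusted p = 0.000512 and 0.000772). Cyp2f2, which oxidises naphthalene, was likewise higher in both, by 1.61 (SE 0.27) and 1.03 (SE 0.26). Between the high-fat groups Cyp2a12 had -0.11 (SE 0.14) and Cyp2f2 -0.59 (SE 0.26), and neither was called. Cyp2g1, best known from the nose, had at most 24 counts and was not tested.

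Since 3 of the 5 genes are female-predominant, lists of other sex-biased liver genes were read beside them. Of 25 female-biased genes listed, 16 passed the filter on low counts, and a low gene could pass through its HFD+veh level alone. Of these 16 tested, 5 were higher and 2 lower in HFD+veh than ND+veh. In HFD+eRapa, 1 was higher and 9 lower than in HFD+veh, and 1 was higher and 7 lower than in ND+veh. The median log2 fold changes were 0.55, -1.72 and -1.17. Hamp2, a hepcidin gene, had a median of 26.9 CPM in ND+veh, 35.5 in HFD+veh and 0.619 in HFD+eRapa, with -5.73 (SE 0.53, edgeR adjusted p = 6.3e-07) against HFD+veh. Cyp39a1, an oxysterol hydroxylase gene, had 71.9, 49.2 and 8.87 CPM, with -2.31 (SE 0.35, edgeR adjusted p = 0.000102) against HFD+veh, and Nipal1, a magnesium transporter gene, -2.73 (SE 0.60, edgeR adjusted p = 0.00233). In HFD+veh against ND+veh, Atp6v0d2, a proton pump subunit also expressed by macrophages, was higher by 3.45 (SE 0.63), the reticulon gene Rtn4 was higher by 1.48 (SE 0.23), and the transporter gene Slc22a26 was lower, at -1.87 (SE 0.54). Slc22a26 was also lower in HFD+eRapa than ND+veh, at -2.60 (SE 0.51).

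Male-biased genes were read in the same way. Of 27 tested, 2 were higher and 9 lower in HFD+veh than ND+veh, 18 were called in HFD+eRapa against HFD+veh, each of them higher, and 9 in HFD+eRapa against ND+veh, each of them higher. The median log2 fold changes were -0.61, 1.54 and 0.68. Slco1a1, an organic anion transporter gene, had medians of 352, 4.43 and 496 CPM in ND+veh, HFD+veh and HFD+eRapa, with -5.41 (SE 0.58) and then 5.80 (SE 0.59, edgeR adjusted p = 2.06e-06). Hsd3b5, a steroid reductase gene, had 15.0, 0.0522 and 44.3 CPM, and the log2 fold changes of -8.40 and 9.98 rest on HFD+veh counts at or near 0. Susd4, a complement regulator gene, was higher in HFD+eRapa than HFD+veh by 4.36 (SE 0.51), and Cyp4a12b, a fatty acid hydroxylase gene, was lower in HFD+veh than ND+veh, at -3.34 (SE 0.76). Against ND+veh, HFD+eRapa was higher for Selenbp2 by 3.74 (SE 0.78), for the antitrypsin gene Serpina1e by 3.61 (SE 0.80) and for the adipokine gene Serpina12 by 2.01 (SE 0.31).

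Other known targets of CAR and PXR moved in both directions. Of 29 tested, 3 were higher and 8 lower in HFD+veh than ND+veh, 4 higher and 7 lower in HFD+eRapa than HFD+veh, and 3 higher and 12 lower in HFD+eRapa than ND+veh. The median log2 fold changes were -0.19, -0.12 and -0.21. Cyp3a11, the main PXR target among P450 genes, was lower than in ND+veh in both high-fat groups, at -2.53 (SE 0.50) in HFD+veh and -2.52 (SE 0.45) in HFD+eRapa, and Cyp2c37 at -2.04 (SE 0.40) and -2.16 (SE 0.36). Cyp2c54, an arachidonic acid oxidase gene, was lower in HFD+veh than ND+veh, at -2.36 (SE 0.49), and higher in HFD+eRapa than HFD+veh by 2.27 (SE 0.48). The glutathione transferase genes Gsta2 and Gstm3 were lower in HFD+eRapa than HFD+veh, at -3.23 (SE 0.38, edgeR adjusted p = 8.66e-06) and -2.69 (SE 0.73, edgeR adjusted p = 0.00796). Gsta2 had medians of 23.3, 68.6 and 7.31 CPM in ND+veh, HFD+veh and HFD+eRapa. Gstm3 was lower in HFD+eRapa than ND+veh as well, at -2.79 (SE 0.72). Over all genes tested, the median log2 fold change was between -0.04 and 0.05 in the 3 comparisons, and the part of other cells in these lists was not tested. The genes called were 25.9%, 32.0% and 13.5% of all tested. They were 2218 higher and 1366 lower in HFD+veh against ND+veh, 1507 and 2925 in HFD+eRapa against HFD+veh, and 959 and 906 in HFD+eRapa against ND+veh.

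**Figure D5:**
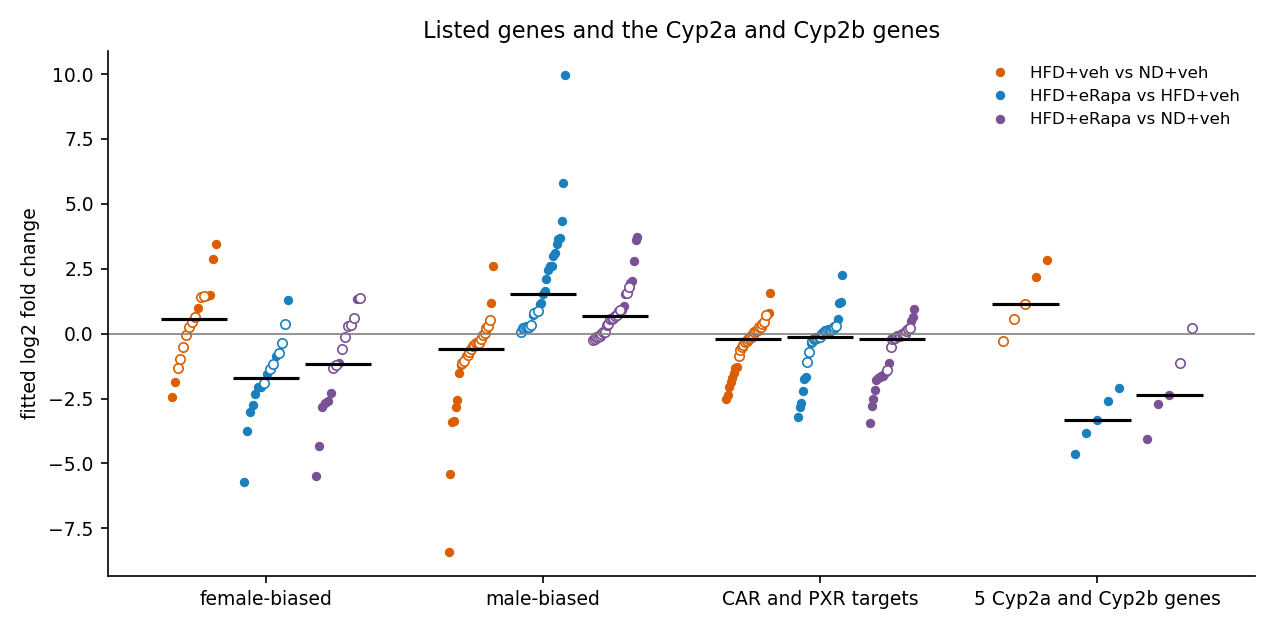
Fitted log2 fold change of each tested gene of 3 lists and of the 5 Cyp2a and Cyp2b genes, in 3 comparisons. Filled points were called at an edgeR adjusted p under 0.05, open points were not, and bars are medians. In HFD+eRapa against HFD+veh the medians are -1.72 for female-biased genes, 1.54 for male-biased genes and -0.12 for CAR and PXR targets.

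The genes whose log2 CPM was most like each of the 5 over the 24 libraries were named by Pearson's r, which includes the differences between groups and shares library depth. For Cyp2a4 they were Ugt1a9, a glucuronosyltransferase gene (r = 0.90, and 0.86 with group means removed), the protease inhibitor gene Timp3 (0.88 and 0.73) and Gsta2 (0.87 and 0.74). For Cyp2a5 all 3 were glutathione transferase genes, Gstm3 (0.87 and 0.79), Gstm1 (0.82 and 0.70) and Gstm2 (0.81 and 0.82). For Cyp2b9 they were Vnn3, a pantetheinase gene (0.90 and 0.81), Serpinb8 (0.84 and 0.66) and Cyp2a22 (0.83 and 0.73). Cyp2b13 shared Cyp2a22 (0.82 and 0.74) and Serpinb8 (0.82 and 0.65) with Cyp2b9, with Atp6v0d2 (0.82 and 0.71) as the third. Cyp2b10 was most like Gsta2 (0.88 and 0.54), the protease gene Ctsl (0.88 and 0.69) and the proteasome subunit gene Psmb10 (0.82 and 0.60). Without ND+veh replicate 4, Mmrn2 took the place of Gsta2 for Cyp2a4, Angptl2 that of Gstm2 for Cyp2a5 and Rtn4 that of Serpinb8 for Cyp2b13.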

How the data were processed

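Hepatocyte RNA-seq of 24 mice was used. The authors aligned reads with STAR to mm10 with Gencode vM23, and the deposited gene counts came from HTSeq 0.11.2 and the deposited FPKM from Cufflinks; replicates were not pooled. Groups were taken from the labels, which put all libraries in 1 batch. Counts were tested in edgeR 4.0.16 (R 4.3.3): genes kept by filterByExpr on group (13847 of 55421), TMM scaling, a quasi-likelihood fit over the 3 groups, and Benjamini-Hochberg adjustment over all genes tested. CPM are TMM-scaled, with a prior count of 2 on the log2 scale. FPKM served to compare levels between genes.

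The 5 genes were chosen on these data, and they and the 13 gene lists were picked with earlier results of these data known. Named genes were the 5 genes, set regulators, partners and relatives, the 3 called genes with the largest absolute log2 fold change in each of 3 lists and comparison (mean log2 CPM of at least 1), and the 3 genes most like each of the 5. DESeq2 1.42.0, other scalings, filters, pseudocounts, a replicate block and leaving out libraries were the alternatives. No label ties 2 libraries to 1 mouse or names the mouse, so p-values measure the spread between these samples. Coordinates come from GENCODE GRCm38, with 55154 of 55421 identifiers matched, and protein sequences were not used here.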

Additional observations from a re-analysis of the deposited data

Results flagged for a closer look

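Values in each group were screened for a mouse far from the others by Dixon's 95% critical value, and 4 of 24 sets of values were past it where chance gives about 1.2. Cyp2a5 in ND+veh replicate 4 was at 10.96 log2 CPM, with the other 7 mice between 6.43 and 8.20. Cyp2a5 in HFD+eRapa replicate 9 was at 4.42 log2 CPM, with the others between 5.67 and 6.91. Cyp2b9 made up 69.2% of the Cyp2b counts in ND+veh replicate 8, with the others between 86.4% and 99.3%, where that mouse had 45 Cyp2b9 and 20 Cyp2b10 counts. HFD+veh replicate 3 had 19.8 M counts, with the others between 21.3 M and 22.0 M.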

How the results depend on the processing

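The direction of HFD+eRapa against HFD+veh was the same for all 5 genes under every alternative run. At least 10 counts in every library left Cyp2a4, Cyp2b10 and Cyp2b13 with no value, and so did, for Cyp2b10 and Cyp2b13, fitting only HFD+eRapa and ND+veh. Genes called in HFD+veh against ND+veh went from 3584 to 2333 with only the 2 groups fitted, 2300 without ND+veh replicate 4 and HFD+veh replicate 6 (an alternative chosen after seeing the data) and 1585 when a change of at least 1 on the log2 scale was also asked for, and ranged from 2106 (without HFD+veh replicate 6) to 4479 with each library left out. In HFD+eRapa against HFD+veh they went from 4432 to 2809 with at least 10 counts in every library, 2532 with the replicate number as a block and 2284 with that minimum change, and in HFD+eRapa against ND+veh from 1865 to 711 with it. With at least 10 counts in every library fewer listed genes could be tested, and called female-biased genes were 3, 4 and 3 in the 3 comparisons and male-biased genes 7 in HFD+veh against ND+veh. Replicate numbers were not taken to pair mice, since no label ties them to a shared origin and 9 of 22 same-numbered pairs had a correlation of deviations above 0.1 (range -0.659 to 0.726), 5 of 7 for ND+veh with HFD+veh and 4 of 15 for pairs with HFD+eRapa. With the block, 5 male-biased genes were called in HFD+eRapa against ND+veh, and no other count of female-biased genes, male-biased genes or CAR and PXR targets moved by over 1.5 times. Called macrophage markers went to 0 in HFD+veh against ND+veh and in HFD+eRapa against HFD+veh, called endothelial markers to 0 in both, and called stellate markers to 0 in the first and 6 in the second. Called regulators went from 7 to 4 in HFD+veh against ND+veh, called genes for P450 partners and haem from 4 to 2 and called neutrophil markers from 2 to 0 in HFD+eRapa against HFD+veh, called hepatocyte markers from 1 to 0 in both of these comparisons, and Cyp2a22 was called in neither. Without both libraries that stand apart, Cyp2b13 had 4.45 in HFD+veh against ND+veh and 2.03 in HFD+eRapa against ND+veh, and Cyp2a5 -1.24 in the latter. With each library left out in turn these 3 ranged from 2.60 to 4.57, from -0.54 to 2.01 and from -2.55 to -1.27. On log2(FPKM + 1), Cyp2b13 had 1.25 in HFD+veh against ND+veh and -1.22 in HFD+eRapa against HFD+veh. Cyp2b10 had -3.08 on log2(FPKM + 0.1) and -1.16 on log2(FPKM + 1) in HFD+eRapa against HFD+veh, and -1.50 and -0.49 against ND+veh, as a pseudocount shrinks low values. Pairs correlated within groups at an adjusted p under 0.05 went from 0 to 7 on log2(FPKM + 0.1), 3 on log2(FPKM + 1) and 6 without TMM, where the cause was not tested. Depth limits Cyp2b10 and Cyp2b13, whose counts per library were at most 100 and 139.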
